A study of Rattus norvegicus with 5 samples.

Results

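The nuclear genes of the respiratory chain were followed in the parietal cortex of neonatal rats with kaolin-induced hydrocephalus. Members were the non-control array probes whose gene name, without the suffix _predicted or _mapped, begins with Nduf (complex I), Sdha to Sdhd (complex II), Uqcr (complex III), Cox4 to Cox8 (complex IV) or Atp5 (complex V). This rule took 70 of 35737 gene names, with 81 of 41012 probes. Of these, 79 probes and 69 genes were well above background often enough to be tested, among 29123 tested probes in all. Complex I gave 31 genes, complex II 4, complex III 5, complex IV 16 (15 tested) and complex V 14. The only gene left untested was Cox6b (now Cox6b1), whose probe was well above background on 1 array in each channel. Some names fit the rule without coding for a subunit. Cox4nb is now Emc8, Ndufaf1 is an assembly factor, Atp5s is now Dmac2l and Cox6c1 is now the pseudogene Cox6c-ps1. No probe carried the name Ndufa4, Ndufa4l2, Ndufab1, Cox7a1 or Cox7c, so these subunits are not described.

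The respiratory chain sits in the inner mitochondrial membrane. Complexes I and II take electrons from NADH and succinate, complex III passes them to cytochrome c, complex IV hands them to oxygen, and the proton gradient that builds up drives ATP synthase, complex V. All but complex II are built from subunits of both genomes: most are encoded in the nucleus and imported, and a small core is encoded in mitochondrial DNA. In the brain the chain supplies most of the ATP that neurons spend on ion pumping and synaptic transmission.

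Each of 5 2-colour Agilent arrays compared total RNA of a kaolin sample (Cy3) with that of a saline sample (Cy5). Kaolin is a clay that obstructs the flow of cerebrospinal fluid, and the sham controls received saline. Pups were injected on postnatal day 1, stayed with the dam, and gave tissue on postnatal day 22, which was post-kaolin day 21. The labels used here give no strain or sex and do not say whether each sample came from a single animal, so p-values measure the spread between arrays, which may be partly technical. The labels put kaolin in Cy3 on every array, so dye and treatment cannot be told apart. In bulk cortex, fewer cells of a type and less RNA per cell cannot be told apart either. Replicates 1 to 4 shared a slide and replicate 5 lay on another. Values below are log2 ratios of kaolin over saline, so a value above 0 means more signal in the kaolin sample, and a gene is represented by its brightest tested probe.

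No spot was saturated, and between 27386 and 29393 probes per channel and array were well above background. All 12 neuron markers were above background in both channels on every array. The arrays differed among themselves. Replicate 2 correlated below 0 with each of the others over the 29123 tested probes (r = -0.37 with replicate 1, -0.17 with replicate 3, -0.07 with replicate 4 and -0.06 with replicate 5), whereas replicates 3 and 4 correlated at 0.83. Reactive astrocyte markers had medians of 0.14, -0.06, 2.57, 2.14 and 2.61 on replicates 1 to 5, and microglia markers 0.09, 0.06, 2.16, 1.50 and 2.22. Neuron markers stood at -0.44, 0.19, -0.42, -0.26 and -0.31. Results are therefore also given without replicate 2, and with its sign turned, since its direction rests on the labelled dyes alone.

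A table of RefSeq promoters (GRCr8, 250 bases before to 50 after the annotated start) held 61 of the 70 member genes. Promoters of respiratory chain genes are known for binding sites of NRF-1 and of the ETS factor GABP (NRF-2). On either strand, the 7 letters GCGCATG of the NRF-1 motif occurred in 10 of 61 member promoters (16.4%), against 3.77% of all 33469 promoters in the table. The ETS core CCGGAA occurred in 25 (41.0%, against 15%), and the NF-Y core CCAAT in 22 (36.1%, against 37.5%). An NRF-1 or ETS match was found in 31 member promoters (50.8%), against 17.7% of all. Member promoters were also richer in G and C (median 56.3%, against 51.7%), and the part of base composition in these shares was not tested. A match is a description of the letters and does not show that a factor binds. The 120 bases before the start are shown for 4 genes from the extremes of the measured ratios, Atp5i and Uqcrh among the lowest and Uqcrc1 and Cox7a2l among the highest. Capitals mark the letters of any of the 3 motifs on either strand, and overlapping matches run together.
Atp5i: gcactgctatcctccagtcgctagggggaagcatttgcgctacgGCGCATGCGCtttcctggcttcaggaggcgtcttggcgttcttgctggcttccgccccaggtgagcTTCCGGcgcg
Uqcrh: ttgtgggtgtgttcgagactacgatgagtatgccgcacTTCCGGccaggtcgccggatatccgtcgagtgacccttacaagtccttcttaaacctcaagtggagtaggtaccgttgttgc
Uqcrc1: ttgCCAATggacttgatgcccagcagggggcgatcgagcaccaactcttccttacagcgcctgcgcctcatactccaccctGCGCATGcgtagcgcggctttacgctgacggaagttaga
Cox7a2l: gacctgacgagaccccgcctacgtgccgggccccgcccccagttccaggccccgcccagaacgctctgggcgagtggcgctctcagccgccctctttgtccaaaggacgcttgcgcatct
On GRCr8 these windows lie at chr14:1464740-1464859 (plus strand) for Atp5i, chr5:134790883-134791002 (minus strand) for Uqcrh, chr8:118468103-118468222 (plus strand) for Uqcrc1 and chr6:16936454-16936573 (plus strand) for Cox7a2l. The Atp5i window holds a palindromic NRF-1 match, read on both strands, and an ETS match 10 bases before the start. The Uqcrh window holds an ETS match, the Uqcrc1 window NRF-1 and NF-Y letters, and the Cox7a2l window none of the 3. The 31 tested genes with an NRF-1 or ETS match had a mean of array medians of 0.05 ± 0.20 (SD, n = 5 arrays), and the 29 without had 0.02 ± 0.25. Both sets were measured on the same arrays, so these SDs do not measure the difference between them. On replicates 1 to 5 the medians were 0.33, -0.19, 0.0081, 0.14 and -0.04 with a match. Without a match they were 0.42, -0.22, -0.07, 0.10 and -0.14. The difference was not tested.

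As a whole, the nuclear-encoded genes showed no shift that was shared by the arrays. Their median log2 ratio was 0.32 on replicate 1, -0.19 on replicate 2, -0.04 on replicate 3, 0.10 on replicate 4 and -0.15 on replicate 5. The mean of these medians was 0.0090 ± 0.21 (SD, n = 5 arrays), while the median of all tested probes lay between -0.01 and 0.0032 on every array. Within replicates 1 and 2 most members lay on the same side of 0. On replicate 1, 62 of 69 genes (89.9%) were above 0, against 48.8% of all tested probes, and on replicate 2 only 10 (14.5%) were, against 50.4%. Replicates 3, 4 and 5 had 27, 44 and 19 genes above 0. Over the mean of 5 arrays, 37 of 69 genes (53.6%) were above 0, against 49.2% of all tested probes, and the means ran from -0.49 (Atp5i) to 0.35 (Atp5s). Without replicate 2 they ran from -0.44 (Atp5i) to 0.51 (Atp5s), and with its sign turned from -0.29 (Cox6a2) to 0.46 (Atp5s). The mean of the members' medians was 0.06 and 0.08 under these settings, within the SD above.

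**Figure D1:**
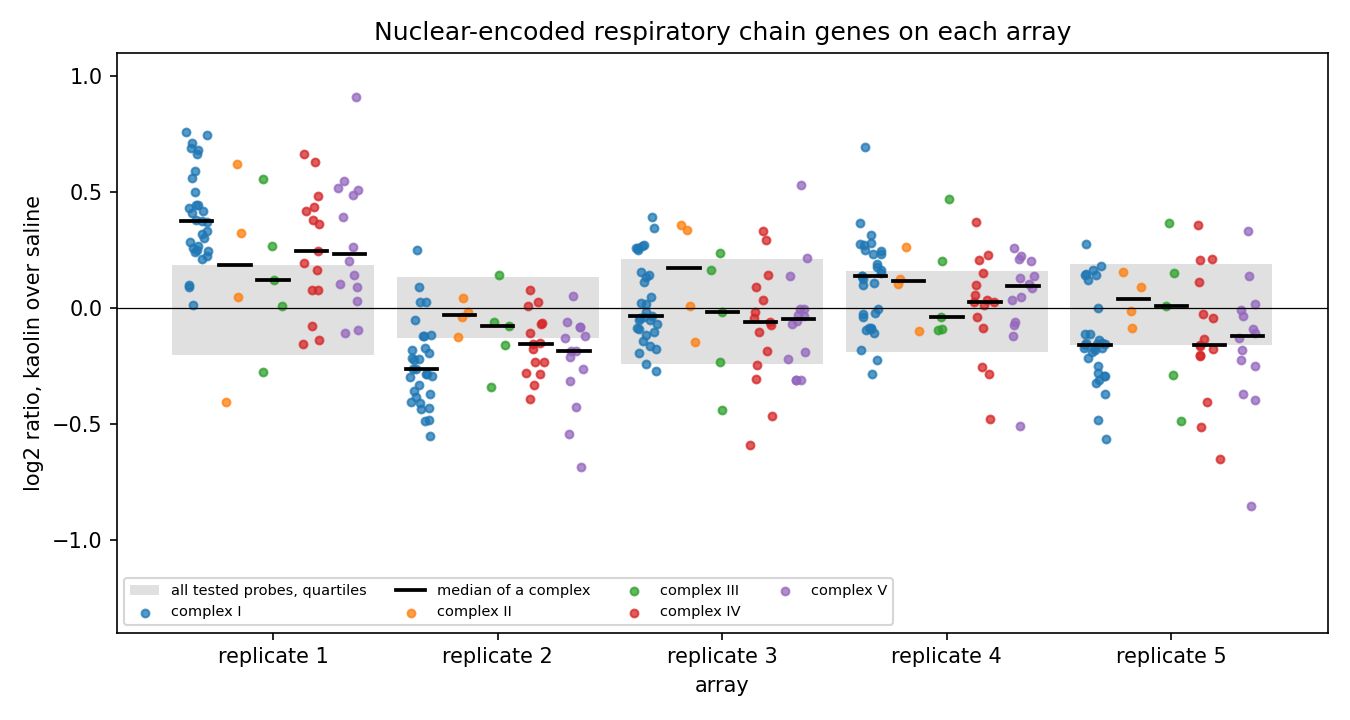
Log2 ratio of kaolin over saline (vertical axis, loess-normalized) of 69 nuclear-encoded respiratory chain genes on each of 5 arrays (horizontal axis), coloured by complex. Black bars are the medians of a complex on that array, and the grey band spans the quartiles of all 29123 tested probes. Complex I lies above 0 on replicate 1 (median 0.38) and below 0 on replicate 2 (median -0.26), and with median centring in place of loess these medians are 0.11 and -0.56.

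No member passed limma's test with Benjamini-Hochberg adjustment over all tested probes, and neither did any other probe (0 of 29123, or 0%; smallest adjusted p 0.243). At an unadjusted p under 0.05, limma called 9 of 69 genes (13.0%), which is below the 18.1% of all tested probes. Of these, 4 were higher in kaolin (5.80%, against 8.82% of all) and 5 were lower (7.25%, against 9.32%). Genes of a single sign on 5 of 5 arrays numbered 3 above 0 (4.35%, against 6.23%) and 5 below 0 (7.25%, against 6.64%). The shares of members called are thus near or under the background.

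The position of a gene among all probes depended on how the dyes were balanced. Members are bright: the median gene had a mean log2 signal of 14.13, against 8.43 over all tested probes. Loess reduces a trend of the ratio with signal, and median centring leaves it in place. With median centring the median of all tested probes was -0.09 and that of the members -0.29, and the members' array medians were 0.07, -0.53, -0.37, -0.10 and -0.51. By complex the means of these medians were -0.28 (I), -0.20 (II), -0.27 (III), -0.26 (IV) and -0.35 (V). Averaged over arrays, other probes of like brightness were as low, but not on each array. Between log2 signals of 14 and 15, 547 other probes averaged -0.32 and 22 member genes -0.29, and at 15 and above 326 other probes averaged -0.49 and 15 member genes -0.48. On single arrays the members of the bin from 14 to 15 lay above the other probes on replicate 1 (0.12, against -0.29) and below them on replicate 2 (-0.59, against -0.37). Under loess the same bins gave 0.0021 and 0.05, then -0.11 and -0.09. The other probes at 15 and above still had medians below 0 on every array (-0.15, -0.13, -0.10, -0.09 and -0.06 on replicates 1 to 5). Atp5i, Cox6c, Uqcrh, Cox6a1 and Ndufb3 are among the members in this bin, and the part of brightness in their values was not tested. With median centring 32 of 69 member genes had an unadjusted limma p under 0.05, every one lower in kaolin, against 25.6% of all tested probes lower. That share covers probes of every brightness, and the share among probes as bright as the members was not computed. None passed adjustment over all probes (smallest adjusted p 0.0643).

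**Figure D2:**
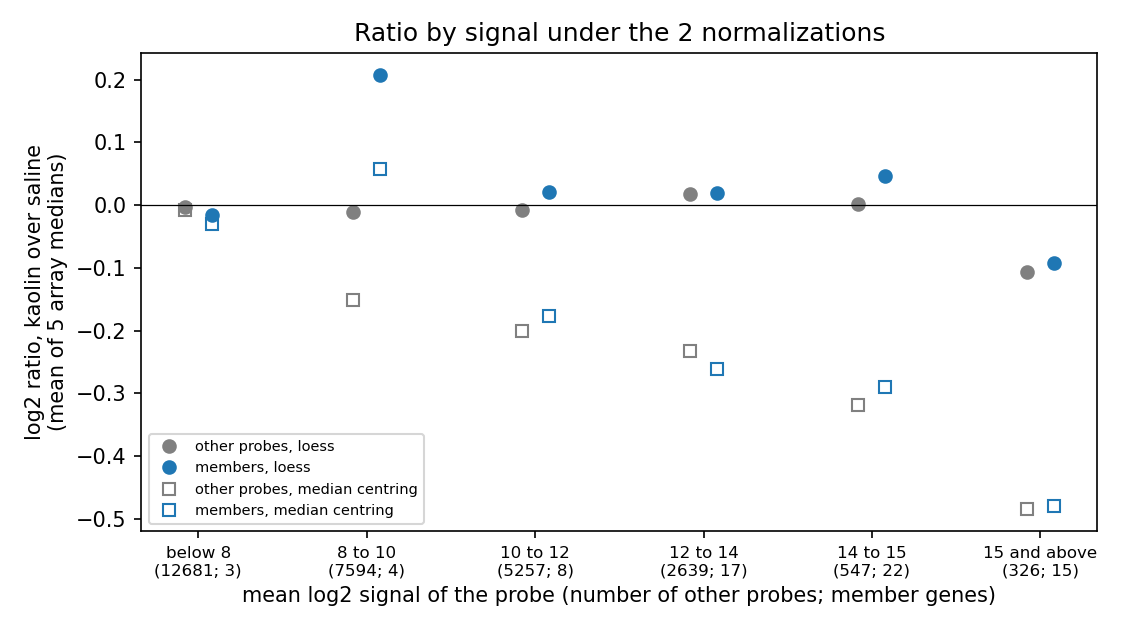
Mean over 5 arrays of the median log2 ratio of kaolin over saline (vertical axis) for probes binned by mean log2 signal (horizontal axis, with the number of other probes and of member genes in each bin). Filled circles are loess values and open squares are median-centred values. Averaged over arrays, members and other probes of the same brightness lie close together from 10 upward, at -0.29 and -0.32 in the bin from 14 to 15 with median centring. The bins below 10 hold 3 and 4 member genes.

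Complex I, the NADH dehydrogenase, had array medians of 0.38, -0.26, -0.04, 0.14 and -0.16 (mean 0.01 ± 0.25, SD, n = 5 arrays; 31 genes). All 31 genes were above 0 on replicate 1, and 4 were on replicate 2. Replicates 3, 4 and 5 had 14, 19 and 7. Most complex I genes thus shared a sign within replicates 1, 2 and 5, and they were split on replicates 3 and 4.

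Among the catalytic core of complex I, Ndufs7, an iron-sulfur subunit singled out after its values were seen, had log2 ratios of 0.27, 0.03, 0.13, 0.17 and 0.14 on replicates 1 to 5. All 5 values were above 0, the lowest on replicate 2. Its mean was 0.15 ± 0.09 (SD, n = 5; limma, unadjusted p = 0.0613, adjusted p = 0.289). Ndufs1, the largest iron-sulfur subunit, had values of 0.21, 0.25, -0.04, 0.14 and -0.19 (mean 0.07 ± 0.19). Ndufv1, the NADH-binding flavoprotein, had a mean of 0.06 ± 0.13. Neither Ndufs1 nor Ndufv1 was separated from 0 by its spread.

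Among the accessory subunits, which surround the core, Ndufb3 of the membrane arm had log2 ratios of 0.01, -0.38, -0.27, -0.28 and -0.31. The last 4 lie close together and replicate 1 stands apart. Its mean was -0.25 ± 0.15 (limma, unadjusted p = 0.0165, adjusted p = 0.243). With median centring the mean was -0.60, where other probes of like brightness averaged -0.49. A dimmer second probe of Ndufb3 averaged -0.01, a gap of 0.23 between probes. Its annotated strand is the opposite one to that of the brighter probe, at chr9:57262705-57262764 against chr9:57262874-57262933 on rn4, the build of the array files. Ndufa12, which joins the arm that carries the flavin, had the widest spread of the named complex I genes, with 0.43, -0.43, 0.26, 0.69 and 0.28 (mean 0.24 ± 0.42). Ndufa7 had 0.30, -0.40, -0.02, -0.23 and -0.48 (mean -0.17 ± 0.32). Neither mean was larger than its SD. Ndufa9, an accessory subunit near the quinone site, had a mean of 0.17 ± 0.20 by its brighter probe and -0.17 ± 0.20 by a dimmer one, so that no direction can be given for this gene. Over all members, 9 genes had more than 1 tested probe, and in 3 of them (Ndufa9, Ndufc2 and Cox5b) the probes had opposite signs.

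Complex II, succinate dehydrogenase, is both an enzyme of the citric acid cycle and an entry point to the chain, and all of its subunits are nuclear. Its array medians were 0.19, -0.03, 0.17, 0.12 and 0.04 (mean 0.10 ± 0.09, SD, n = 5 arrays; 4 genes), and -0.20 with median centring. The membrane anchors and the catalytic subunits had different values. The anchor Sdhc stood at 0.32, -0.02, 0.36, 0.13 and 0.16 (mean 0.19 ± 0.15; limma, unadjusted p = 0.0471, adjusted p = 0.271), and the anchor Sdhd at 0.62, -0.04, 0.34, 0.26 and -0.01 (mean 0.23 ± 0.27). Both means were below 0 with median centring (-0.06 and -0.07). The flavoprotein Sdha, which oxidises succinate, stood at -0.41, 0.04, -0.15, -0.10 and -0.09 (mean -0.14 ± 0.17), and the iron-sulfur subunit Sdhb had a mean of 0.03 ± 0.09. The difference between anchors and catalytic subunits was not tested.

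Complex III, the cytochrome bc1 complex, had array medians of 0.12, -0.08, -0.02, -0.04 and 0.0078 (mean -0.00054 ± 0.08, SD, n = 5 arrays; 5 genes). Its members lay on both sides of that median. Uqcrc1, a core protein, had log2 ratios of 0.56, -0.06, 0.24, 0.47 and 0.15, above 0 on all arrays but replicate 2. Its mean was 0.27 ± 0.25, or 1.21-fold (limma, unadjusted p = 0.0342, adjusted p = 0.254), and 0.07 with median centring. The partner core protein Uqcrc2 had 0.12, 0.14, -0.02, -0.04 and 0.0078 (mean 0.04 ± 0.08, and -0.28 with median centring). The hinge protein Uqcrh, which helps cytochrome c1 meet cytochrome c, was below 0 on every array (-0.28, -0.08, -0.44, -0.09 and -0.49). Its mean was -0.27 ± 0.19, or 0.827-fold (limma, unadjusted p = 0.0166, adjusted p = 0.243). The small subunit Uqcrb had a mean of -0.15 ± 0.12 and was above 0 on replicate 1 alone. The Rieske iron-sulfur protein Uqcrfs1 had 0.27, -0.34, 0.16, 0.20 and 0.37 (mean 0.13 ± 0.28), with replicate 2 far below the others.

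Complex IV, cytochrome c oxidase, had array medians of 0.25, -0.15, -0.06, 0.03 and -0.16 (mean -0.02 ± 0.17, SD, n = 5 arrays; 15 tested genes). Cox6c, a small structural subunit, had the smallest unadjusted p of all members with the arrays as labelled. Its log2 ratios of -0.15, -0.33, -0.46, -0.26 and -0.41 lie below 0 on every array. The mean was -0.32 ± 0.12, or 0.800-fold (limma, unadjusted p = 0.0030, adjusted p = 0.243), and -0.72 with median centring. Without replicate 2 its mean was -0.32 (unadjusted p = 0.0078, where Ndufa12 had 0.0050), and with the sign of replicate 2 turned it was -0.19 ± 0.32 (unadjusted p = 0.155, adjusted p = 0.320). Its probe is placed at chr7:71465887-71474416 on rn4, a far longer span than those of the other probes positioned here. Cox7a2l, a homologue that helps to join complexes III and IV into supercomplexes, was above 0 on every array (0.48, 0.03, 0.33, 0.21 and 0.11). Its mean was 0.23 ± 0.18 (limma, unadjusted p = 0.0293, adjusted p = 0.248), and -0.03 with median centring.

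Several complex IV subunits exist as isoforms of different tissues. The widely expressed Cox4i1 had values of 0.44, -0.39, -0.07, 0.10 and -0.18 (mean -0.02 ± 0.31), and Cox4i2, known as the lung and low-oxygen isoform, -0.14, 0.08, -0.31, -0.48 and 0.21 (mean -0.13 ± 0.28). Neither was separated from 0 by its spread. Cox6a1, the isoform of most tissues, was below 0 on every array (-0.08, -0.28, -0.06, -0.09 and -0.51; mean -0.20 ± 0.20; limma, unadjusted p = 0.0560). Cox6a2, the heart and muscle isoform, had 0.08, 0.01, -0.59, -0.28 and -0.65 (mean -0.29 ± 0.33). The arrays on which Cox6a2 was near 0 are those on which astrocyte and microglia markers were near 0 too (replicates 1 and 2). Skeletal muscle markers had medians between -0.11 and 0.06 on the 5 arrays (6 of 8 tested; summed signal 2185 to 6936 in kaolin and 4704 to 8544 in saline), but Tnnc2, a fast-muscle troponin named after its values were seen, stood at -0.32, -0.22, -1.03, -1.54 and -2.38 (mean -1.10 ± 0.90). Tnnc2 was thus lowest on replicates 3 to 5, where Cox6a2 was below 0. The other tested muscle markers were mixed on these arrays. By mean they ran from Acta1 (-0.25, -0.02 and -0.40 on replicates 3 to 5) to Mylpf (0.26, -0.06 and 0.31). The part of muscle markers in the Cox6a2 values was not tested. The remaining named subunits had means within their spread: Cox7a2 at 0.17 ± 0.34, Cox6b2 (the testis isoform) at 0.08 ± 0.20, Cox5b at 0.06 ± 0.18, Cox7b at 0.04 ± 0.38, Cox5a at 0.02 ± 0.24 and Cox8a at -0.03 ± 0.11.

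Complex V, ATP synthase, had array medians of 0.23, -0.19, -0.05, 0.10 and -0.12 (mean -0.0046 ± 0.17, SD, n = 5 arrays; 14 genes). With the arrays as labelled, the lowest mean of all members belonged to Atp5i (now Atp5me), subunit e, which takes part in joining the enzyme into dimers. Its log2 ratios were -0.11, -0.68, -0.31, -0.51 and -0.85. All 5 were below 0, weakest on replicate 1 and strongest on replicate 5. The mean of -0.49 ± 0.29 corresponds to 0.711-fold (limma, unadjusted p = 0.0039, adjusted p = 0.243), and was -0.91 with median centring. It was still the lowest without replicate 2 (-0.44 ± 0.32), but with the sign of that array turned its mean was -0.22 ± 0.57 (limma, unadjusted p = 0.310, adjusted p = 0.494) and Cox6a2 (-0.29 ± 0.33) was the lowest. The probe lies at chr14:1868395-1868454 on rn4 and is one of the brightest of the set, with a mean log2 signal of 16.5. Atp5d, the delta subunit of the F1 stalk, was also below 0 on every array (-0.10, -0.06, -0.31, -0.12 and -0.37; mean -0.19 ± 0.14; limma, unadjusted p = 0.0401, adjusted p = 0.262).

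Under loess the subunits of the catalytic head stayed close to 0. Atp5a1 (alpha) had 0.10, 0.05, -0.04, 0.21 and 0.14 (mean 0.09 ± 0.09). Atp5b (beta), which carries the catalytic sites, had 0.03, -0.19, -0.22, 0.04 and -0.11 (mean -0.09 ± 0.12). With median centring their means were -0.24 and -0.43, where other probes of like brightness averaged -0.32. The gamma subunit of the rotor, Atp5c1, had a mean of 0.10 ± 0.26. The stalk subunits Atp5o and Atp5j averaged 0.02 ± 0.35 and 0.12 ± 0.19. Atp5g2, a gene for the c subunit of the membrane ring, had probes at 0.04 and 0.20, and related c-subunit genes may share probe sequence. Atp5s, which is no subunit of the enzyme, had the highest mean of the set (0.91, -0.26, 0.53, 0.26 and 0.33; mean 0.35 ± 0.43; limma, unadjusted p = 0.0590).

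**Figure D3:**
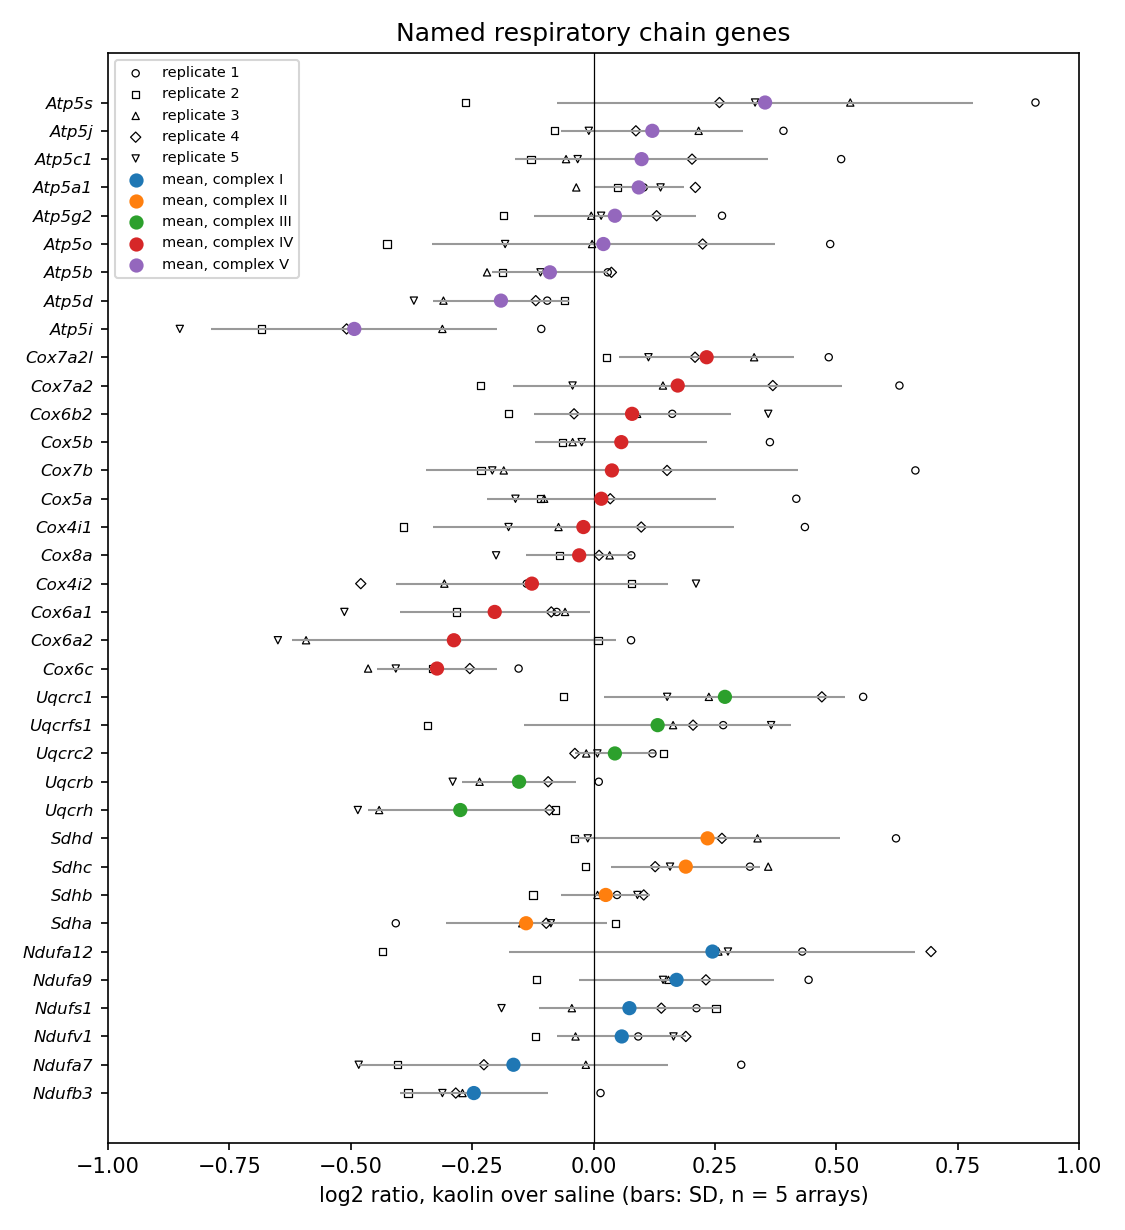
Log2 ratio of kaolin over saline (horizontal axis, loess-normalized) of 36 named genes, ordered by complex. Open symbols are the 5 arrays, filled circles the mean and grey lines the SD. Atp5i (mean -0.49), Cox6c (-0.32) and Uqcrh (-0.27) have every array below 0, and Cox7a2l (0.23) every array above 0, though with median centring the mean of Cox7a2l is -0.03.

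Because most members shared a sign on several arrays, each gene was also set against the members' own median on the same array, a step added after the values were seen and given with no test. The median SD of a gene over 5 arrays was then 0.14, against 0.25 before. A smaller SD is what taking out the members' shared part brings about, so it is no result about single genes. The other probes were not treated in this way, so the counts below, out of 69 genes, have no background share beside them. Below the members' median on 5 of 5 arrays were 7 genes: Atp5i (mean difference -0.50 ± 0.16), Cox6c (-0.33 ± 0.13), Ndufb3 (-0.26 ± 0.09), Cox6a1 (-0.21 ± 0.16), Ndufa1 (-0.13 ± 0.05), Ndufb9 (-0.12 ± 0.05) and Ndufv2 (-0.12 ± 0.07). Above it on 5 of 5 arrays were 7 others, among them Uqcrc1 (0.26 ± 0.09), Ndufa6 (0.23 ± 0.10), Sdhd (0.23 ± 0.11), Cox7a2l (0.22 ± 0.10), Sdhc (0.18 ± 0.17) and Ndufa9 (0.16 ± 0.09, by its brighter probe). The first group has mean log2 signals of 14.78 to 16.84 and the second of 11.33 to 14.96, so brightness differs between them too, and its part was not tested.

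The subunits encoded in mitochondrial DNA had other values than their nuclear partners. Probes named ND2, ND5, CYTB, COX1, COX2, COX3 and ATP6 stood for 7 of the 13 mitochondrial genes. Their medians were -1.03, 0.23, -0.80, -0.74 and -0.21 on replicates 1 to 5 (mean -0.51 ± 0.51, SD, n = 5 arrays). None of the 7 genes was above 0 on replicates 1, 3 and 4, whereas all 7 were on replicate 2 and 2 on replicate 5. All 7 means were below 0, and 5 had an unadjusted limma p under 0.05 (9.32% of all tested probes were called in that direction), but none passed adjustment (smallest adjusted p 0.243). ATP6, a membrane subunit of ATP synthase, had the lowest mean with the arrays as labelled (-1.35, 0.05, -1.25, -1.05 and -0.45; mean -0.81 ± 0.60). Without replicate 2 its mean was -1.02 and limma's adjusted p 0.0413. CYTB was then lower, at -1.04, and it was also lower with the sign of replicate 2 turned (-0.88, against -0.83 for ATP6). With the arrays as labelled, CYTB of complex III averaged -0.78 ± 0.71, ND2 of complex I -0.71 ± 0.56 and COX1, the catalytic subunit of complex IV, -0.51 ± 0.54. COX2, the subunit that receives electrons from cytochrome c, had the mean closest to 0 (-0.27 ± 0.47 by its brightest probe), but its 7 probes ran from -1.16 to -0.17.

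Nuclear minus mitochondrial medians were 1.35, -0.41, 0.77, 0.84 and 0.06 on replicates 1 to 5 (mean 0.52 ± 0.70, SD, n = 5 arrays). The difference was above 0 on 4 arrays and below 0 on replicate 2, and its SD exceeded its mean. Without replicate 2 it was 0.76 ± 0.53 (n = 4), and with the sign of that array turned it was 0.69 ± 0.48. Replicate 2 was the only array below 0. Either setting therefore had to leave every array above 0 and raise the mean, so no conclusion is drawn from it. Under loess the genomes stood on opposite sides of 0 on replicates 1, 2 and 4. The nuclear median was the higher on replicates 1 and 4, and the mitochondrial median on replicate 2. By complex the mean differences were 0.58 ± 0.78 (I), 0.78 ± 0.76 (III), 0.41 ± 0.59 (IV) and 0.80 ± 0.74 (V). Neuron markers had the sign of the mitochondrial genes on every array (-0.44, 0.19, -0.42, -0.26 and -0.31). Their summed signal was 223300 to 369300 in kaolin and 271200 to 448000 in saline, and their part in these values was not tested.

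**Figure D4:**
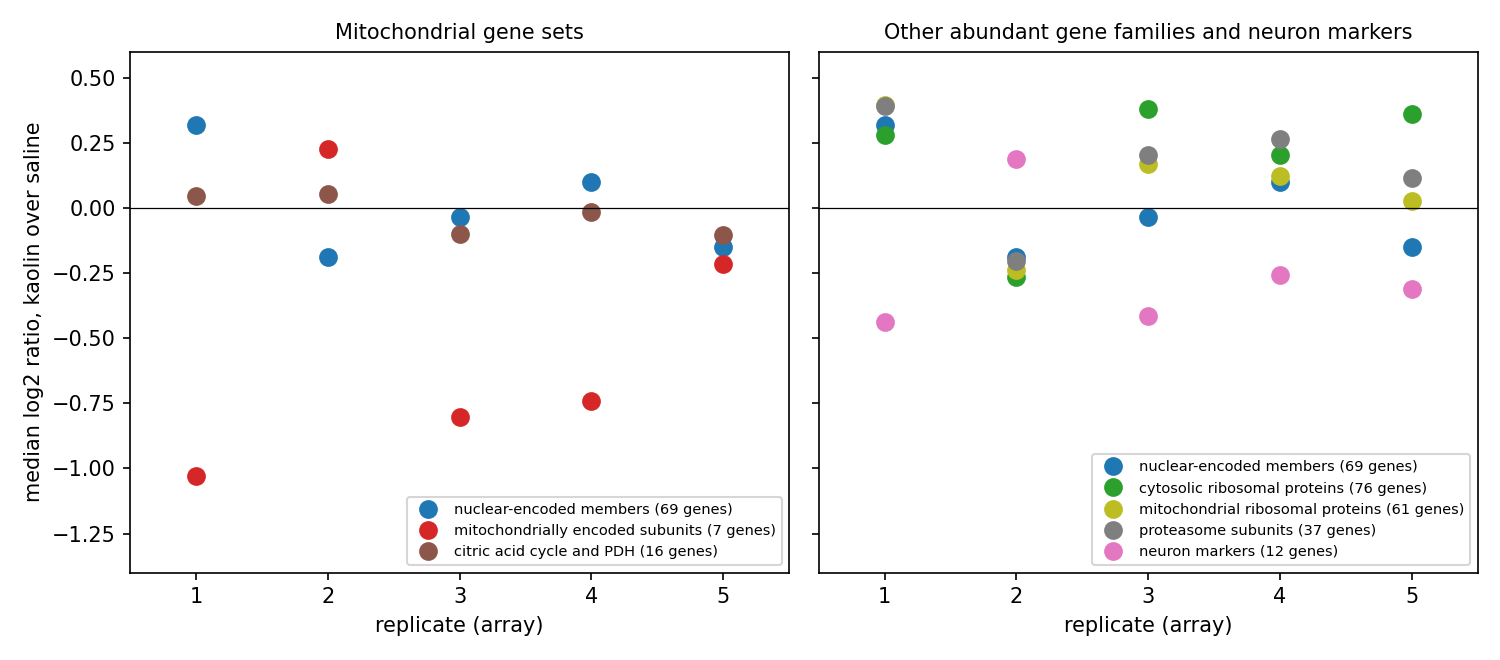
Median log2 ratio of kaolin over saline (vertical axis, loess-normalized) on each of 5 arrays (horizontal axis). The left panel sets the 69 nuclear-encoded members beside 7 mitochondrially encoded subunits and 16 genes of the citric acid cycle and pyruvate dehydrogenase, and the right panel beside ribosomal proteins, proteasome subunits and neuron markers. Mitochondrially encoded subunits reach -1.03 on replicate 1, where nuclear-encoded members stand at 0.32 (0.07 with median centring).

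Other mitochondrial genes lay near 0. The citric acid cycle and pyruvate dehydrogenase (16 of 17 tested) had a mean of array medians of -0.02 ± 0.08, with 2 genes at an unadjusted limma p under 0.05 in each direction. Suclg2, a subunit of succinyl-CoA ligase, was above 0 on every array (0.20, 0.23, 0.77, 0.44 and 0.84; mean 0.50 ± 0.30; adjusted p = 0.243), and Pdhb, of pyruvate dehydrogenase, below 0 on every array (-0.17, -0.12, -0.48, -0.18 and -0.23; mean -0.24 ± 0.14; adjusted p = 0.243). Regulators of mitochondrial biogenesis (17 of 18) averaged 0.00081 ± 0.05 with none called, between Ppargc1b, a coactivator, at -0.22 ± 0.27 and Polg2, of the mitochondrial DNA polymerase, at 0.19 ± 0.26. Assembly factors outside the naming rule (15 of 27) averaged 0.04 ± 0.15 with none called, between Cox18 at -0.24 ± 0.28 and Tmem126b at 0.27 ± 0.44.

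Cytochrome c and subunits named otherwise (4 of 5 tested) averaged -0.07 ± 0.19 with none called, between Cyc1, the cytochrome c1 of complex III, at -0.16 ± 0.11 and Usmg5, a small subunit of ATP synthase, at 0.35 ± 0.53. Carriers, import and uncoupling proteins (21 of 24) averaged 0.03 ± 0.09, with 3 genes at an unadjusted limma p under 0.05 above 0 and 1 below. The latter was Slc25a27, a brain uncoupling protein, at -0.96, 0.17, -1.86, -2.05 and 0.21 (mean -0.90 ± 1.08; adjusted p = 0.268). The chaperonin Hspe1 was the highest at 0.33 ± 0.45. With median centring these 5 lists averaged -0.27 (citric acid cycle), -0.17 (regulators), -0.15 (assembly factors), -0.38 (cytochrome c) and -0.20 (carriers).

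Without replicate 2, no member passed limma's adjusted threshold (smallest adjusted p 0.0593, Ndufa12), while 5.19% of all tested probes did. At an unadjusted p under 0.05, 12 members were then higher (15.1% of all probes) and 6 lower (16.4%), 18 in all, against 31.4% of all probes. Without replicate 2, the means were 0.35 for Uqcrc1, -0.44 for Atp5i and -0.32 for Cox6c. With array weights, which gave replicate 2 the lowest weight (0.46) and replicate 4 the highest (2.36), 4 of 69 members passed, among them Atp5i, Cox6c and Uqcrc1 (adjusted p from 0.0426 to 0.0491), against 11.9% of all probes. With the sign of replicate 2 turned, none passed (smallest adjusted p 0.0513), against 1.67% of all probes. At an unadjusted p under 0.05, 13 members were then higher (14.6% of all probes) and 2 lower (15.5%), 15 in all, against 30.1%.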

How the data were processed

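The authors read the arrays with Agilent's Feature Extraction, release 10.1.1.1. The file headers give each channel's mean and local background as raw intensity. Per the file headers, the log ratio that the program adds is on a log10 scale with Cy5 over Cy3, and the flags are other values (0 or 1). The authors' deposited matrix is in log2 with Cy3 over Cy5 (column medians -0.10 to 0.09). How they normalized it was not stated in the labels. By array it correlated with the program's log ratio, set in the same direction, at 0.978 to 0.9998. Outlier spots, 86 to 147 per array, were dropped. Normexp (offset 50) and within-array loess were run in limma 3.58.1 (R 4.3.3; data were read by release 1.17.8 of data.table), giving control spots zero weight. Testing (lmFit and eBayes, intercept against 0, two-sided) took the 29123 probes that exceeded background clearly in either channel on 3 arrays or more, and Benjamini-Hochberg adjusted p at 0.05 over them. Sets are described by array medians, since 5 arrays allow no sign-flip p under 0.0625.

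The members and lists were chosen with earlier results of these data known. Named genes were a panel of subunits, the 2 highest and 2 lowest of each complex, the 5 smallest p in each direction, and the 3 with the widest probe gap; in other lists, the highest and the lowest. A result that this rule takes is not reported here. Probe positions are those of the files on rn4, without gene models. RefSeq gave current names to 10768 probes through accessions, 5055 through symbols and 3388 through synonyms, and the file's name was used for 21801. Protein sequences were not used here, so isoforms were not aligned. Alternatives covered background correction, normalization, filters, weights, slide, left-out arrays, the sign of replicate 2 and the members counted. The fit was tested on simulated data.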

Additional observations from a re-analysis of the deposited data

Results flagged for a closer look

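In 3 of 60 sets of 5 values examined (named genes, complexes and gene lists), a single array stood apart from the other 4 by Dixon's criterion (critical value 0.71), where chance alone marks about 1 in 20 groups. Ndufb3 stood at 0.014 on replicate 1, with the others between -0.38 and -0.27. Uqcrfs1 stood at -0.34 on replicate 2, with the others between 0.16 and 0.37. Cox5b stood at 0.36 on replicate 1, with the others between -0.06 and 0.05.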

How the results depend on the processing

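Of 304 recomputed values that answer a comparison, 273 counted as unchanged over 19 alternatives. A median counted as unchanged if it moved by less than its SD over arrays, and a count if it was equal or close. A median near 0 could thus change sign and still count, as that of all members did without replicate 1 (-0.07, against 0.0090). Leaving out a single array cannot move the mean of the array medians by as much as its SD. Those medians therefore had to count as unchanged, and no conclusion is drawn from the number of unchanged values. With median centring in place of loess, 22 single probes passed. At an unadjusted limma p under 0.05, 32 of 69 members were then called, every one lower in kaolin. Of all probes 29.9% were called in either direction and 25.6% lower. These shares cover probes of every brightness, and the members are brighter than most. The medians were -0.29 (all members), -0.28 (complex I), -0.20 (II), -0.27 (III), -0.26 (IV), -0.35 (V), -0.38 (cytochrome c and subunits named otherwise), -0.15 (assembly factors), -0.17 (biogenesis regulators), -0.27 (citric acid cycle) and -0.20 (carriers). Cox7a2l (-0.0268) and Sdhc (-0.0576) then turned below 0, and 19 of 36 named genes changed sign. At an unadjusted limma p under 0.05, 1 member was called with the processed signals, 1 with the software's log ratio and 1 with the authors' matrix. The matrix holds nearly the same values as the software's log ratio, so it is not a separate check. Slide as a random block gave 15. For these settings the share of all probes was not computed. Array weights gave 18 of 69 members (36.2% of all probes), and the turned sign of replicate 2 gave 15 (30.1% of all probes). Single probes past the adjusted threshold numbered 3455 (11.9%) with array weights and 486 (1.67%) with that sign turned, and members past it numbered 4 of 69 with array weights. Genes whose probes disagreed in sign numbered 5 without background subtraction, 1 with array weights, 1 with slide as a block and 5 with other names of subunits added, which was chosen after seeing the data. Leaving out each array in turn gave 0 to 1512 single probes (1512 without replicate 2, 1 without replicate 1) and 3 to 18 members at an unadjusted p under 0.05 (3 without replicate 3, 4 without replicate 4, 18 without replicate 2). Without replicate 2 the share of all probes at that p was 31.4%, and it was not computed for the other arrays left out. The cause of these differences between settings was not tested. The arrays themselves pair the samples: each sets a kaolin sample against a saline sample, and the test was run on these ratios. The number of arrays limits the precision.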

Other observations

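Other abundant gene families, chosen after their values were seen, also had medians that differed between arrays. Cytosolic ribosomal proteins (76 genes) had medians of 0.28, -0.27, 0.38, 0.20 and 0.36 on replicates 1 to 5, mitochondrial ribosomal proteins (61 genes) 0.39, -0.24, 0.17, 0.12 and 0.03, and proteasome subunits (37 genes) 0.39, -0.20, 0.20, 0.26 and 0.11. All 3 families were above 0 on replicate 1 and below 0 on replicate 2, as the respiratory chain genes were (0.32 and -0.19). On replicates 3 and 5 they lay above 0, where the respiratory chain genes lay at -0.04 and -0.15. These differences were not tested.

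Some probes are subunits or assembly factors under names outside the rule. LOC316632, now Ndufa10l1, had 3 probes with means of 0.20, 0.21 and 0.09. RGD1309085, now Ndufaf6, an assembly factor of complex I, had the widest spread of these (1.02, -0.98, 0.71, 0.31 and 0.06; mean 0.22 ± 0.77). Markers of neighbouring tissue differed between arrays. Pineal gland markers (3 of 6 tested) had medians of -0.05, -2.63, -0.23, -0.26 and -0.12, with summed signals of 192.5 to 461.3 in kaolin and 325.7 to 19130 in saline. Choroid plexus markers (6 of 8 tested) had medians of -0.74, -0.81, -0.95, -0.36 and -0.04, with summed signals of 832.5 to 4644 in kaolin and 1500 to 74990 in saline. Their part in the respiratory chain values was not tested.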
